A study of Homo sapiens with 29 samples.

Results

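The comparison described here takes 4 ATAC-seq libraries of the prostate cancer line 22Rv1, of human origin, treated with the covalent stereoprobe WX-02-23 (20 µM, 3 h): 2 of a line with doxycycline (Dox)-inducible WT-FOXA1 and 2 of a line with Dox-inducible C258A-FOXA1. Both lines also expressed Y36C-PHF5A, and all 4 libraries received Dox. The labels list no deletion of the cells' own FOXA1 gene, do not say whether a line is 1 clone, and do not say whether replicates were separate cultures, so p-values measure only the spread between these libraries, which may be technical. The vehicle controls were 2 libraries of each line with Dox and DMSO (0.1%, 3 h). For lookup, the series also held, for 3 h each, 2 libraries per line with Dox and pladienolide B (PladB, 100 nM), 2 of the WT-FOXA1 line with DMSO and no Dox, and 15 of parental cells in groups of 3 (DMSO, WX-02-23, its stereoisomer WX-02-43 at 20 µM, PladB at 10 nM and at 100 nM), 29 libraries in all. Each library was deposited as its own list of peaks on build hg19. Peaks of the 4 WX-02-23 lists that overlapped or touched were merged, which gave 104238 regions. A separate merge of all 29 lists gave 166696 regions. A region held by both lists of one line and by neither list of the other is called WT-only or C258A-only below.

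ATAC-seq marks open chromatin, where a transposase can cut between nucleosomes. FOXA1 is a pioneer factor: through its forkhead domain it binds DNA wrapped on nucleosomes and opens enhancers, and in prostate epithelium it does so for the androgen receptor. C258, in the forkhead domain, is the cysteine that WX-02-23 engages, and alanine at that position cannot form the covalent bond. PHF5A is a subunit of the spliceosome's SF3B complex, the target of PladB, and its Y36C form blunts the action of such ligands. The comparison therefore asks which open regions differ under WX-02-23 between cells whose induced FOXA1 can and cannot be engaged.

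Under WX-02-23 the WT-FOXA1 line had fewer called peaks than the C258A-FOXA1 line. The WT-FOXA1 lists held 67815 and 62832 peaks, and the C258A-FOXA1 lists 76645 and 92658. Both WT-FOXA1 lists were shorter than both C258A-FOXA1 lists. The difference of the means, WT-FOXA1 minus C258A-FOXA1, was -19328 peaks (two-sided exact permutation test, p = 0.333, and 2 against 2 libraries allow no smaller p). With DMSO the same lines gave 88140 and 85009 peaks (WT-FOXA1) and 84260 and 87171 peaks (C258A-FOXA1), lists that overlapped in length. Relative to DMSO, the mean list length changed by -21251 peaks in the WT-FOXA1 line and by -1064 peaks in the C258A-FOXA1 line. The difference between these changes was -20187 peaks (two-sided exact permutation test over 36 arrangements of the line labels, p = 0.111, smallest possible p 0.0556). Without C258A-FOXA1 WX-02-23 replicate 2, the longest list, these differences were -11322 and -12181 peaks.

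The shorter WT-FOXA1 lists had on average no lower relative depth. No read totals were used here, but the commonest background behind the peaks of each library could be recovered from the fold and p columns. In the 4 WX-02-23 lists 16.8% to 25.2% of the peaks fitted it, and the backgrounds of the others were not recovered. This commonest background was 0.903 and 1.26 reads per base in the WT-FOXA1 WX-02-23 libraries and 0.648 and 0.917 in the C258A-FOXA1 ones. These ranges overlapped (exact two-sided permutation p 0.667). The lowest summit called held 6 and 7 reads in the WT-FOXA1 and 5 and 6 reads in the C258A-FOXA1 lists, and signal under these limits gave no peak. The median of the authors' fold enrichment over background was 6.84 and 6.58 in the WT-FOXA1 lists against 7.23 and 7.30 in the C258A-FOXA1 lists, and the part of this lower enrichment in the list lengths was not tested.

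**Figure D1:**
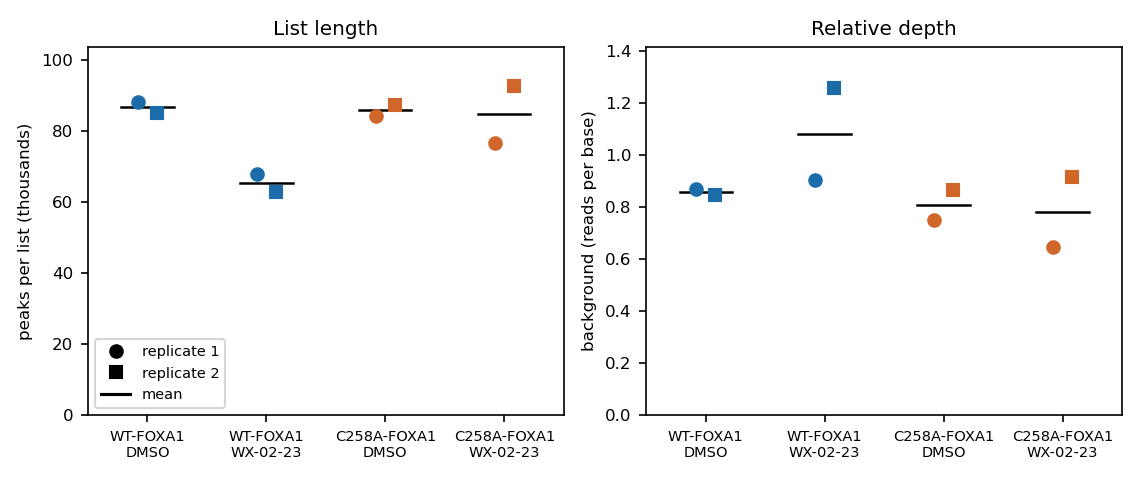
Peaks per list (left, in units of 1000) and recovered background in reads per base (right) for the 8 libraries of the engineered lines with Dox and DMSO or WX-02-23; circles are replicate 1, squares replicate 2, lines the mean of 2 libraries. The WT-FOXA1 WX-02-23 lists, at 67815 and 62832 peaks, lie below all 6 others, while their background values of 0.903 and 1.26 overlap the 0.648 and 0.917 of the C258A-FOXA1 WX-02-23 libraries.

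Of the 104238 regions, all 4 WX-02-23 lists held 47657. As deposited, 1415 regions were WT-only (1.36% of the regions) and 10298 were C258A-only (9.88%). Many more were held by a single library. Among regions with no C258A-FOXA1 peak, WT-FOXA1 replicate 1 alone held 3319 and replicate 2 alone 2281. Among regions with no WT-FOXA1 peak, C258A-FOXA1 replicate 1 alone held 4680 and replicate 2 alone, the longest list, 16285. In each line, among the regions without a peak of the other line, more were held by a single library than by both. Each set depends on all 4 libraries, since leaving out any of them drops a condition of the rule. The WT-only count became 3739 without WT-FOXA1 replicate 1, 4785 without WT-FOXA1 replicate 2 and 4078 without C258A-FOXA1 replicate 2. The C258A-only count became 26865 without C258A-FOXA1 replicate 1, 15529 without C258A-FOXA1 replicate 2 and 16472 without WT-FOXA1 replicate 1.

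The sets were nearer in size at equal list length, which the cut itself favours, since it gives every list the same number of peaks. When each list was cut to the 62832 peaks with the highest −log10 p, the length of the shortest, 83328 regions remained, of which 42786 were held by all 4 lists. WT-only regions then numbered 3321 (3.99%) and C258A-only regions 3989 (4.79%). The last peak kept had a −log10 p of 6.73 in WT-FOXA1 replicate 1, 7.72 in C258A-FOXA1 replicate 1 and 10.5 in C258A-FOXA1 replicate 2, and the first peak left out had the same value to this precision. WT-FOXA1 replicate 2, whose list was kept whole, ended at 4.18. Of the WT-only regions as deposited, 1193 (84.3%) were also WT-only at equal length, where they made up 35.9% of the set. Of the 3321 equal-length WT-only regions, 2128 (64.1%) carried a C258A-FOXA1 peak that lay under the limit. The C258A-only sets shared 3508 regions, 34.1% of the deposited and 87.9% of the equal-length set, and 479 of the latter (12.0%) carried a weaker WT-FOXA1 peak.

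**Figure D2:**
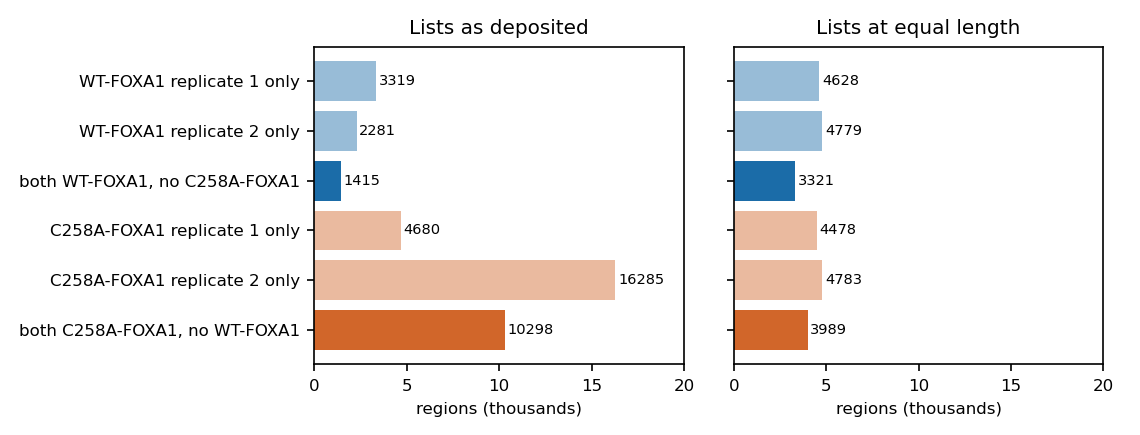
Number of regions (bar length, with the count printed) held by WX-02-23 lists of 1 line only, as deposited (left) and with all 4 lists at 62832 peaks (right); pale bars are regions of a single library, full bars the WT-only (blue) and C258A-only (orange) sets. The 1415 and 10298 regions of the deposited lists become 3321 and 3989 at equal length.

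Whole lists were compared by the Jaccard index, which divides the length common to both lists by the length that at least 1 of them covers. It had a mean of 0.589 across the lines under WX-02-23 (4 pairs, 0.556 to 0.617), against 0.664 across the lines under DMSO (0.661 to 0.666). At equal length the across-line means were 0.624 under WX-02-23 (0.613 to 0.633) and 0.680 under DMSO (0.677 to 0.684). Pairs within a line were also less alike under WX-02-23, with means of 0.655 against 0.697 under DMSO as deposited and of 0.676 against 0.714 at equal length, so the lower values were not confined to pairs across the lines. Pairs share libraries, so no test was made.

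The DMSO lists, which did not choose the regions, separated the sets by line. Of the 1415 WT-only regions, 49.7% and 47.9% had a peak in the WT-FOXA1 DMSO libraries (48.8% ± 1.25, SD, n = 2). In the C258A-FOXA1 DMSO libraries the shares were 18.8% and 22.0% (20.4% ± 2.30, SD, n = 2). Over all 104238 regions the 4 DMSO libraries held 72.2% to 75.1%, with the lines overlapping. Of the 10298 C258A-only regions, 72.7% and 76.6% had a peak in the C258A-FOXA1 DMSO libraries (74.7% ± 2.75, SD, n = 2) and 59.4% and 56.5% in the WT-FOXA1 DMSO libraries (58.0% ± 2.07, SD, n = 2). For neither set did the libraries of one line overlap those of the other, and shares over chosen regions were not tested. At equal length the shares were 41.2% and 41.8% against 22.0% and 23.0% for WT-only regions, and 43.1% and 44.8% (WT-FOXA1) against 68.8% and 69.2% (C258A-FOXA1) for C258A-only regions, beside 69.2% to 69.9% over all regions. The WT-only shares rested on the longest WX-02-23 list: without C258A-FOXA1 replicate 2 they were 69.9% in the WT-FOXA1 and 52.6% in the C258A-FOXA1 DMSO libraries.

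Taking the 4 DMSO lists together, the commonest class of C258A-only regions was open in vehicle in both lines. It held 3646 regions (35.4%), which were called in all 4 DMSO lists, called again in the C258A-FOXA1 line with the probe, and not called in the WT-FOXA1 line with it. A further 1264 (12.3%) were held by both C258A-FOXA1 and neither WT-FOXA1 DMSO list, a difference between the lines already seen with vehicle. No DMSO list held 817 (7.93%). Among all regions of the 4 WX-02-23 lists these classes made up 58.3%, 3.25% and 12.0%. For the WT-only regions the commonest class was the one without vehicle peaks. No DMSO list held 476 of them (33.6%), 266 (18.8%) were held by both WT-FOXA1 and neither C258A-FOXA1 DMSO list, against 2.47% of all regions, and 117 (8.27%) were held by all 4.

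At equal length the same classes kept their order. Of 3989 C258A-only regions, 22.4% were held by all 4 DMSO lists, 17.3% by both C258A-FOXA1 and neither WT-FOXA1 list (3.08% of all regions) and 11.5% by none. Of 3321 WT-only regions, 8.37% were held by all 4, 12.1% by both WT-FOXA1 and neither C258A-FOXA1 list (2.61% of all regions) and 40.1% by none. Among all regions at equal length, 54.2% were held by all 4 DMSO lists, more than in either set, and 15.4% by none. Regions held by exactly 1 of the 4 WX-02-23 lists were held by no DMSO list in 49.1% and by all 4 in 4.82%.

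**Figure D3:**
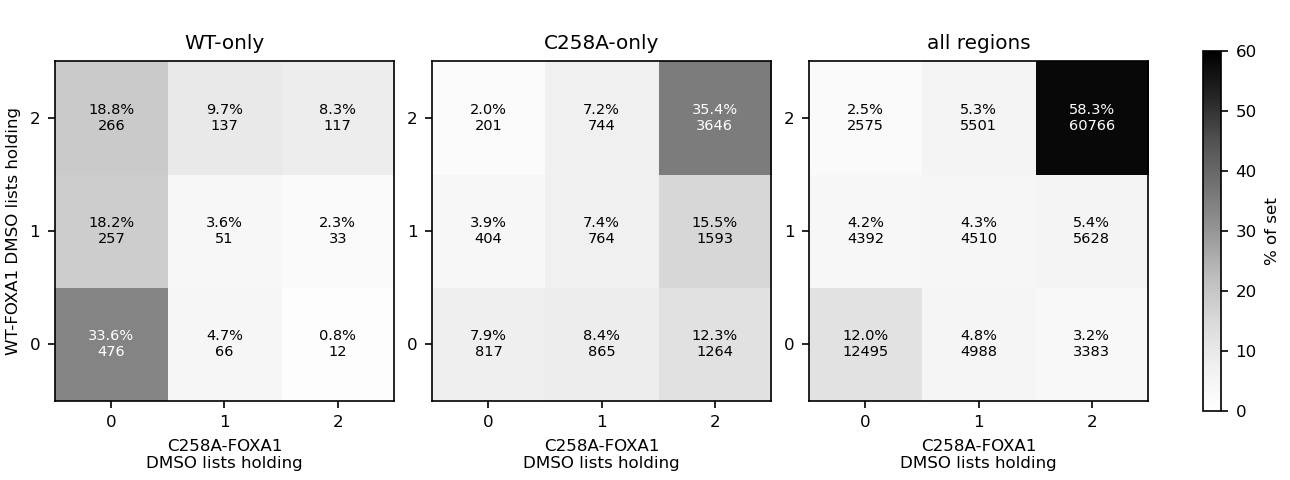
Share of each set (percent and number of regions) by how many of the 2 WT-FOXA1 DMSO lists (vertical) and of the 2 C258A-FOXA1 DMSO lists (horizontal) held the region, lists as deposited; darker cells are larger shares. The WT-only set is heaviest at 0 and 0 (33.6%), the C258A-only set at 2 and 2 (35.4%).

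Even among regions that all 4 DMSO lists held, the median place of each set differed by line. With all lists at equal length, 893 C258A-only regions were in all 4 DMSO lists. Their median percentile by −log10 p, where 100 is the strongest peak of a list, was 39.2 and 39.1 in the C258A-FOXA1 DMSO lists and 30.3 and 32.0 in the WT-FOXA1 DMSO lists. The 278 WT-only regions in all 4 lists showed the reverse, with 31.4 and 32.1 in the WT-FOXA1 and 22.7 and 22.9 in the C258A-FOXA1 DMSO lists. The 45187 regions of any kind in all 4 DMSO lists had a median of 63.9 to 64.1 in each list. Both C258A-FOXA1 lists ranked a region above both WT-FOXA1 lists in 34.3% of the C258A-only, 7.91% of the WT-only and 19.5% of all such regions. The reverse order was found in 12.2% of the C258A-only, 38.8% of the WT-only and 20.7% of all such regions. The remaining regions, the larger part of each set, showed neither order.

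Libraries without Dox and with PladB took no part in the choice of regions. Without Dox, the WT-FOXA1 line held 19.4% and 18.0% of the WT-only regions, fewer than with Dox and DMSO (49.7% and 47.9%). It held 35.2% and 32.5% of the C258A-only regions against 59.4% and 56.5% with Dox. Over all regions the uninduced libraries held 59.5% and 57.6%, but these lists were also short, and at equal length the WT-only shares were 34.4% and 34.1% without Dox and 41.2% and 41.8% with it, beside 65.1% and 64.6% against 69.2% and 69.2% of all regions. For C258A-only regions the equal-length shares were 33.1% and 32.5% without and 43.1% and 44.8% with Dox. PladB libraries of the WT-FOXA1 line held 30.3% and 48.0% of the WT-only regions, with list lengths of 71121 and 88735 peaks, and 39.4% ± 0.77 (SD, n = 2) at equal length. PladB libraries of the C258A-FOXA1 line held 57.6% and 61.5% of the C258A-only and 12.0% and 12.1% of the WT-only regions. Of all regions, PladB libraries held 62.6% and 74.4% in the WT-FOXA1 and 65.2% and 67.1% in the C258A-FOXA1 line, and 67.9% to 69.3% at equal length. Under PladB, too, each line held more of its own set than the other line did at equal length: C258A-only regions were held in 62.3% and 62.7% against 42.6% and 44.1%, and the C258A-FOXA1 PladB libraries held 20.3% and 20.6% of the WT-only regions.

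Parental cells carry no inducible FOXA1, and their libraries come from another processing folder, so they were compared only among themselves. Of the WT-only regions, the parental DMSO libraries held 26.5%, 29.2% and 27.3%, and the parental WX-02-23 libraries 40.1%, 37.7% and 38.2%. All 3 WX-02-23 libraries lay above all 12 other parental libraries, of which the highest, a WX-02-43 library, held 31.8%. Over all regions the means were 68.1% ± 1.2 with DMSO and 70.3% ± 0.87 with WX-02-23 (SD, n = 3 each). At equal length the WT-only shares were 32.1% ± 0.12 with DMSO, 39.4% ± 0.38 with WX-02-23 and 33.1% ± 0.48 with WX-02-43 (SD, n = 3 each), again without overlap of WX-02-23 with any other parental group. This separation was not confined to the WT-only set, where it was larger. Over all regions at equal length the means were 63.8% ± 0.23 with DMSO and 65.6% ± 0.30 with WX-02-23 (SD, n = 3 each). There, too, the WX-02-23 libraries (65.4% to 66.0%) lay above all other parental libraries, the highest at 65.1%. For the C258A-only regions the shares overlapped, at 48.2% ± 1.4 with DMSO and 47.9% ± 1.1 with WX-02-23 (SD, n = 3 each). At equal length they were 33.4% ± 0.56 and 30.6% ± 0.54 (SD, n = 3 each), with all 3 WX-02-23 libraries below all 3 DMSO libraries but overlapping the 31.7% ± 0.82 of PladB at 100 nM (SD, n = 3; lowest library 30.8%).

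**Figure D4:**
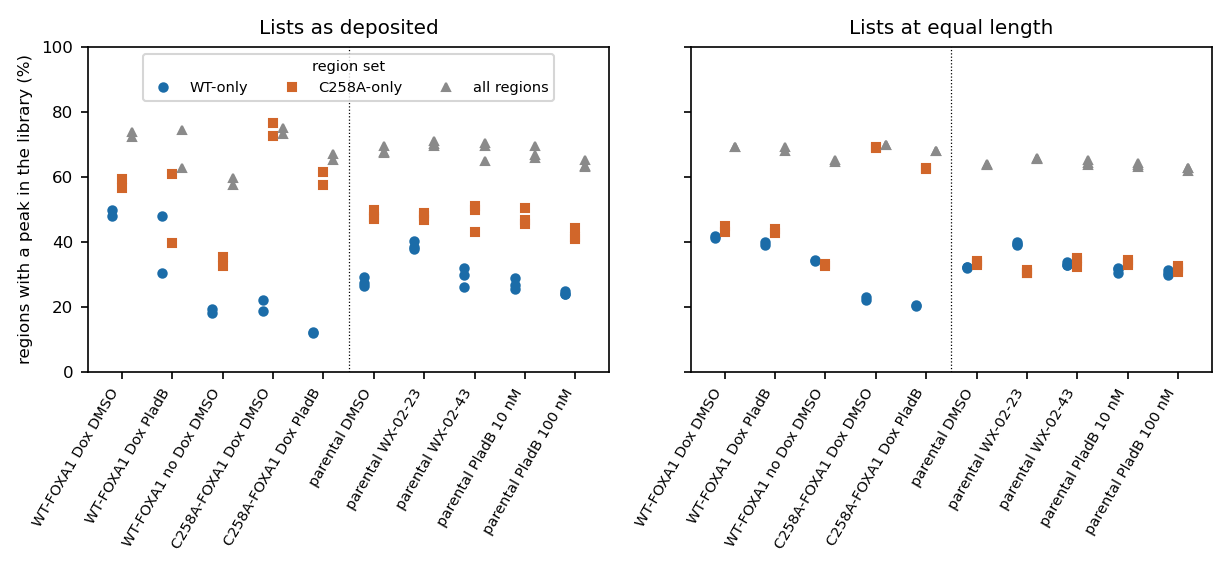
Percent of the WT-only (blue circles), C258A-only (orange squares) and all regions (grey triangles) with a peak in each library that did not choose them, lists as deposited (left) and at equal length (right); each point is a library, and the dotted line separates engineered from parental cells. Parental WX-02-23 libraries, at 37.7% to 40.1% of the WT-only regions, lie above the other parental libraries, and with Dox and DMSO the C258A-FOXA1 libraries lie below the WT-FOXA1 libraries for WT-only and above them for C258A-only regions.

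The parental values differed between the vehicle classes. The 476 WT-only regions in no engineered DMSO list were held by parental DMSO libraries in 10.5%, 11.3% and 10.9% and by parental WX-02-23 libraries in 28.8%, 25.4% and 26.3%. For all 12495 regions in no DMSO list the shares were 22.1%, 26.1% and 22.8% with parental DMSO and 35.0%, 32.1% and 32.3% with parental WX-02-23, so higher values were also found outside the WT-only set. The 817 C258A-only regions in no DMSO list were held in 24.6%, 29.9% and 27.7% of cases with parental DMSO and in 38.8%, 38.6% and 36.2% with parental WX-02-23. For the 3646 C258A-only regions in all 4 DMSO lists the shares were 60.7%, 58.1% and 60.4% with parental WX-02-23 and 64.1%, 66.3% and 64.3% with parental DMSO, and with PladB at 100 nM they were as low as with WX-02-23 (58.9% ± 1.9, SD, n = 3). At equal length the 893 such regions were held in 56.6%, 59.0% and 56.8% with parental DMSO and in 43.7%, 42.3% and 42.7% with parental WX-02-23, beside 53.2% ± 1.0 with PladB at 100 nM (SD, n = 3), while the values over all 45187 regions in all 4 DMSO lists were 87.6% to 88.1% and 87.3% to 87.5%. Lower values were not confined to the C258A-only set. Regions held by exactly 1 of the 4 WX-02-23 lists and by all 4 DMSO lists, 900 in number, were held in 72.4% to 74.0% with parental DMSO and in 59.9% to 62.4% with parental WX-02-23. The 278 WT-only regions in all 4 DMSO lists were held in 76.3% to 78.1% and in 75.2% to 77.0%, which overlapped.

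As deposited, both sets consisted mostly of peaks of low rank, with widths a little below those of all regions. The median width was 271 bp for WT-only, 281 bp for C258A-only and 315 bp for all regions. It was 180 bp for regions held by 1 list and 461 bp for regions held by all 4. A region spans the merged peaks of every list that holds it, so part of this order follows from the merging. In their own lists the WT-only regions had a median fold enrichment of 5.65 and 5.27, and 10.4% and 7.14% of them were in the stronger part of the list, above its median −log10 p. The C258A-only regions had a median fold of 5.67 and 6.26, with 9.25% and 19.3% above the median. Regions held by all 4 lists had medians of 8.16 and 7.49 in the WT-FOXA1 lists and of 8.91 and 9.76 in the C258A-FOXA1 lists. The strongest WT-only peak reached a fold of 12.8 and the strongest C258A-only peak 16.1, against 34.8 among regions held by all 4. At equal length the C258A-only set ranked higher, with 23.4% and 46.4% of its regions above the median of their deposited lists. For the WT-only set these shares were 12.9% and 7.98%. Median widths were then 275 bp (WT-only) and 320 bp (C258A-only), beside 344 bp for all regions. Although the rule bars an overlapping peak of the other line, 10.3% of WT-only and 9.17% of C258A-only regions as deposited had one within 500 bp. WT-only regions lay a median of 15537 bp and C258A-only regions 22706 bp from the nearest region held by all 4 lists, and the distances were 16348 and 27136 bp at equal length. For all regions the medians were 15936 and 17013 bp.

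The sets were spread unevenly over the chromosomes. To leave aside the regions open in every list, members were counted against the regions that at least 1 of the 4 lists lacked, at equal length. C258A-only regions made up 9.84% of these genome-wide, but 6.05% on chromosome 19, 6.09% on chromosome 17, 5.75% on chromosome 22 and 7.17% on chromosome 16. They made up 12.9% on chromosome 8, 12.6% on chromosome 4 and 11.3% on chromosome 13. WT-only regions made up 8.19% genome-wide, with 10.9% on chromosome 19, 10.3% on chromosome 17 and 9.87% on chromosome 22, and with 6.27% on chromosome 13, 7.14% on chromosome 8 and 5.01% on chromosome X. The WT-only value was also high on chromosome 12 (10.1%) and near the genome-wide one on chromosome 16 (8.36%), and chromosome 18 had 8.86% WT-only and 9.24% C258A-only regions. As deposited, C258A-only regions ranged from 11.8% on chromosome 19 to 21.5% on chromosome 13 and 25.2% on chromosome Y, which held few regions, against 18.2% in all. Chromosomes were not tested, since the regions of 1 library share its depth.

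**Figure D5:**
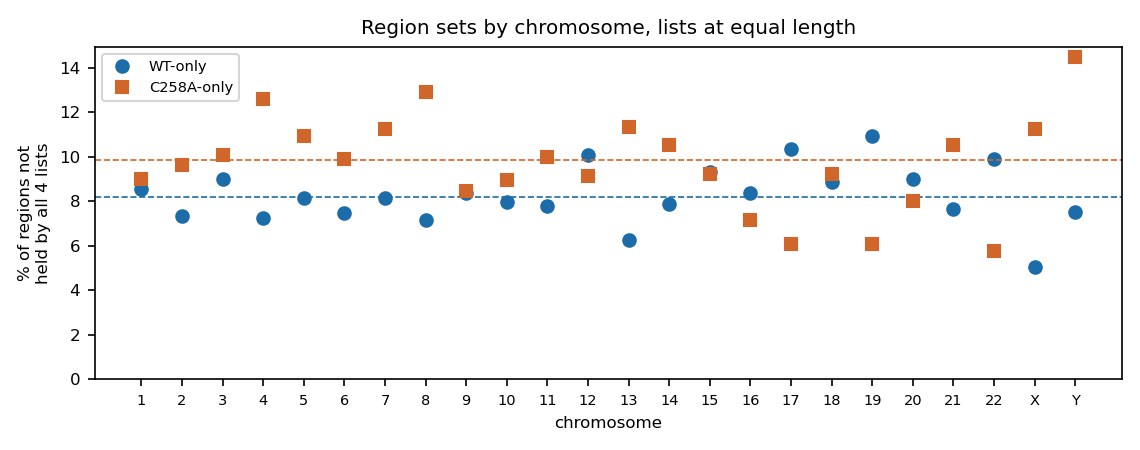
WT-only (blue circles) and C258A-only (orange squares) regions as a percent of the regions of each chromosome that at least 1 of the 4 lists lacked, lists at equal length; dashed lines are the genome-wide values of 8.19% and 9.84%. C258A-only regions lie above WT-only regions on chromosomes 4, 8 and 13, and below them on chromosomes 17, 19 and 22.

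Single regions are given for those that met the rule both as deposited and at equal length, the strongest 4 of each vehicle class by the lower of their percentiles in the lists that held them. Fold values are the authors' enrichments over background. Coordinates are those of hg19, whose gene annotation was not used here. The class with the most members was C258A-only and held by all 4 DMSO lists, with 1820 regions. Its strongest was chr20:18656285-18656604, with folds of 12.5 and 12.6 in the C258A-FOXA1 WX-02-23 lists, 14.7 and 13.4 with DMSO in that line, and 10.4 and 7.92 with DMSO in the WT-FOXA1 line. No WT-FOXA1 WX-02-23 list and no uninduced list held it, while both PladB lists of each line did. The next were chrY:19275078-19275489, chr8:91245581-91245966 and chr10:61167510-61168002. In all 4 regions the DMSO folds were higher in both C258A-FOXA1 lists than in both WT-FOXA1 lists. No uninduced list held any of them, and no parental list held the last 3.

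C258A-only regions held by both C258A-FOXA1 and neither WT-FOXA1 DMSO list numbered 452. The strongest was chr6:161143966-161144367, with folds of 11.5 and 14.1 with WX-02-23 and 12.0 and 11.8 with DMSO. It was followed by chr8:83944581-83945159, chr8:132378143-132378687 and chr4:102014496-102014943. At least 1 PladB library of the WT-FOXA1 line held each of these 4, so each was called at times in that line too. All 3 parental DMSO and all 3 parental WX-02-23 libraries held chr8:132378143-132378687, while no parental library held the rest. C258A-only regions in no DMSO list numbered 80. The strongest, chr7:52235026-52235440, had folds of 9.09 and 12.3 and was held by 3 of 3 parental WX-02-23 and by no parental DMSO library. It was also held by 1 parental WX-02-43 library (fold 4.25) and by 1 PladB library of the WT-FOXA1 line (4.13) and 1 of the C258A-FOXA1 line (6.93). The others were chr4:165615692-165616015, chr13:63391678-63391903 and chr9:12455462-12455922. All 3 parental DMSO libraries held the chromosome 4 region, 2 of 3 held the chromosome 9 region and none held the chromosome 13 region.

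Among WT-only regions, 391 were in no DMSO list. The strongest was chr11:64175072-64175525, with folds of 9.96 and 10.1 in the WT-FOXA1 WX-02-23 lists. The next, chr5:172214062-172214452, chr6:53469616-53469955 and chr3:197479171-197479616, had folds of 8.43 and 8.70, 9.34 and 9.73, and 5.34 and 5.66. No parental list, with WX-02-23 included, held any of these 4, and of the other engineered lists 1 PladB library of the WT-FOXA1 line held the chromosome 11 region.

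WT-only regions held by both WT-FOXA1 and neither C258A-FOXA1 DMSO list numbered 240. The strongest was chr7:85297119-85297610, with folds of 12.8 and 11.4 with WX-02-23 and 10.8 and 13.0 with DMSO. The regions chr19:10432608-10433069, chr1:50623818-50624227 and chr14:45642979-45643444 followed. No uninduced library of the same line held any of the 4, and 2 of 3 parental WX-02-23 libraries held the chromosome 1 region. That region was also held by 1 PladB library of the C258A-FOXA1 line (fold 5.67) and by 1 parental library with PladB at 100 nM (4.66). WT-only regions held by all 4 DMSO lists numbered 100. The strongest was chr3:180680301-180680773, with folds of 8.93 and 8.61 in the WT-FOXA1 WX-02-23 lists, and with DMSO of 8.02 and 10.9 in the WT-FOXA1 and 5.72 and 5.36 in the C258A-FOXA1 line. All 15 parental libraries held it. The others were chr3:88117484-88117981, chr5:176370546-176370949 and chr12:32204427-32204788, the last of them also held by all 15 parental libraries. The DMSO folds separated the lines at the first of these 4 and on chromosome 5, but not at chr3:88117484-88117981 (6.42 and 7.05 in the WT-FOXA1, 6.29 and 6.43 in the C258A-FOXA1 line) or on chromosome 12 (7.38 and 5.23, 5.14 and 5.90).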

How the data were processed

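ATAC-seq measured open chromatin in all libraries. The submitters' processing notes name Bowtie2, MACS2 and hg19, while the sources used here give no software versions, options or transposase shift. Replicates were called separately. Per peak, the authors deposited a score, a fold enrichment (ratio), the −log10 of the p-value and the −log10 of the q-value (lowest near 2, a q-value of 0.01). These values served to rank, filter or describe the peaks of their own list.

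The 2 to 4 mitochondrial peaks of each engineered list were left out. A list held a region when a peak overlapped it by at least 1 bp. Lists were cut to equal length by −log10 p, ties by fold, then position. The background was solved from fold steps of 1 read and Poisson p-values (tolerance 0.01 in −log10 p); 16.8% to 25.2% of the peaks of the 4 lists lay on a step. It depends on read extension, so it is a relative depth only. List lengths were compared by exact permutation; shares over chosen regions were not tested. Named regions followed a rule: in the same set as deposited and at equal length, 4 per set and class of DMSO lists, ranked by the lower percentile. The members, lists and alternatives were chosen with earlier results of these data known. The planned motif, gene and marker lookups need an hg19 genome and were not analysed here. Counting was tested on simulated data and checked against bedtools. Computation used numpy 2.4.6, scipy 1.17.1, pandas 2.3.3 and matplotlib 3.10.9 under Python 3.11.15.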

Additional observations from a re-analysis of the deposited data

How the results depend on the processing

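The 10 main results had 110 values under other settings, of which 75 stayed within tolerance (1.5 times for a count, 1 SD between libraries for a share, the sign for a difference in list length) and 35 moved; none changed the direction of a difference that exceeded its spread. Lists of equal length moved the counts to 3321 WT-only and 3989 C258A-only regions. They moved the WT-only share in WT-FOXA1 DMSO to 41.5%, the C258A-only shares to 44.0% in WT-FOXA1 and 69.0% in C258A-FOXA1 DMSO, and the parental WX-02-23 minus DMSO difference to 7.31 points (WT-only) and -2.80 points (C258A-only). The WT-only share in WT-FOXA1 DMSO became 52.0% with a q-value of 1e-05 or below, 47.2% with 50% of the region covered and 46.8% with windows of 100 bp on each side of summits. Summit windows also gave 25.6% in C258A-FOXA1 DMSO and 7.39 points in parental cells. Regions from all 29 lists moved nothing past tolerance.

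Leaving out a library gave 1864 to 4785 WT-only and 13770 to 26865 C258A-only regions, more by construction, since a condition is dropped. WT-only shares then ranged from 37.1% to 69.9% in WT-FOXA1 and 18.8% to 52.6% in C258A-FOXA1 DMSO, and C258A-only shares from 43.5% to 67.6% and 53.2% to 79.2%. The parental difference ranged from 7.48 to 11.8 points (WT-only) and from -0.806 to 0.815 points (C258A-only). List length differences ranged from -27335 to -11322 peaks, and the difference between the lines' changes from -28194 to -12181. With the replicate number as a block, the 1415 and 10298 regions and the length differences of -19328 and -20187 are unchanged by construction, with exact permutation p of 0.5 and 0.25. As deposited, same-numbered lists across lines had a mean Jaccard index of 0.586 (0.617 and 0.556), differently numbered ones 0.592 (0.581 and 0.604). These pairs share libraries and differ in list length, so whether the numbers pair the libraries was not settled. Equal length gives no value for list lengths. As deposited, the lowest summit called in the 4 WX-02-23 lists held 5 to 7 reads; at equal length an absent peak may be one under the −log10 p limit.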

Other observations

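Neighbouring members were about as common in both sets at equal length, where 31.4% of the C258A-only and 30.2% of the WT-only regions had another member within 100 kb. The densest 100 kb window as deposited, chosen after its values were seen, lay at chr1:176714212-176798992 and held 6 C258A-only regions among 8. In this window the C258A-FOXA1 WX-02-23 libraries had 8 and 7 peaks, the WT-FOXA1 WX-02-23 libraries 1 and 1, and the WT-FOXA1 DMSO libraries 6 and 5. The uninduced libraries had 3 and 1. The densest WT-only window as deposited held 4 members among 19 regions, at chr2:92269036-92306266. At equal length the densest WT-only window held 5 members among 5 regions, at chr4:49289310-49325755. In both of these windows no parental library had a peak. Each engineered list, of either line, had 9 to 16 peaks in the first, the uninduced ones 13 and 14. The parental lists also held no mitochondrial peak, while each engineered list held 2 to 4. Parental and engineered lists were processed in separate folders, so cells and processing cannot be told apart there.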
